A study of Homo sapiens with 6 samples.

Results

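The transcription factors of the luminal and apocrine breast lineages FOXA1, SPDEF, GATA3, XBP1, TFAP2A, TFAP2B, ESR1, PGR and TRPS1 were followed in MDA-MB-453 cells after depletion of DUSP6, a phosphatase that switches off ERK. The members were taken by symbol, and all 9 had a row among the 22807 genes of the table. MDA-MB-453 is an established HER2+ breast cancer cell line, widely used as a model of the apocrine subtype. RNA-seq was available from 3 libraries of cells transfected with scrambled siRNA and 3 libraries of cells transfected with DUSP6 siRNA, the former labelled wild type and the latter as knockdown, and no other agent or allele is given for either group. The knockdown is transient, so untransfected cells can remain in a library. The study made this comparison to ask which gene programs lie downstream of DUSP6. The study describes 3 siRNAs against DUSP6 and 3 scrambled controls, and the labels do not tie a given siRNA to a given library. The labels do not say that libraries came from separate cultures, so the p-values measure only the spread between these libraries. That spread may be technical or may come from the different siRNAs.

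In the normal breast, luminal cells line the ducts and secrete milk, and their identity is kept by a small set of transcription factors. FOXA1 and GATA3 open closed chromatin so that steroid hormone receptors can bind, and the AP-2 factors TFAP2A and TFAP2B, the ETS factor SPDEF and the secretory factor XBP1 act in the same cells. Tumors of the apocrine subtype lack estrogen receptor but keep FOXA1.

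The labels were checked first. DUSP6, the siRNA target, had normalized values of 209, 110.1 and 114 in the scrambled libraries and 39.4, 24.5 and 35.2 in the DUSP6 siRNA libraries (limma: log2 fold change -2.05, SE 0.25, adjusted p = 3.09e-04). One unit of these values is close to 1 CPM (counts scaled to library size), and the libraries held between 45546981 and 85729785 reads. Luminal epithelial markers passed the filter for testing in 11 of 12 cases. KRT8 was at 611 and EPCAM at 268 in scrambled cells, CDH1 and CLDN3 at 50.8 and 32.1, and MUC1, under the filter, at 0.852. Of the 22 apocrine markers, 12 reached the mean value of 1 required for testing, with CLCA2, FASN and AZGP1 at 1393, 1318 and 466 in scrambled cells, whereas PIP, a secreted marker of apocrine glands, stood at 1.25. Markers of blood and endothelial cells summed to between 4.98 and 5.97 in scrambled libraries.

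Promoter sequences are shown for 5 of the 7 factors whose mRNA fell. Each is the 250 bases that end just before the start of the canonical transcript in GENCODE on GRCh38.p14. They are read 5′ to 3′ on the strand of the gene. The positions are chr14:37595250-37595499 (minus strand), chr6:34556330-34556579 (minus), chr10:8054438-8054687 (plus), chr22:28800570-28800819 (minus) and chr6:50818621-50818870 (plus), in that order. Capitals mark matches to the motifs named after the sequences.
FOXA1: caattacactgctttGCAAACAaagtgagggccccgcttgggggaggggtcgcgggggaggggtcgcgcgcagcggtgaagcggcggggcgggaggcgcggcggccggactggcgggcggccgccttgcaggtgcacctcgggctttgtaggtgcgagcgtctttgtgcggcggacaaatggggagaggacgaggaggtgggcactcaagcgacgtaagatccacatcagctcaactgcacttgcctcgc
SPDEF: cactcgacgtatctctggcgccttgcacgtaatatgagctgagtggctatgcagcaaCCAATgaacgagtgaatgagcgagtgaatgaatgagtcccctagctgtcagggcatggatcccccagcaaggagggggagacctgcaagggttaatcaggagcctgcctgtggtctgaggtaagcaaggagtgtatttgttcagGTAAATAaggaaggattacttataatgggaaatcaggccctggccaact
GATA3: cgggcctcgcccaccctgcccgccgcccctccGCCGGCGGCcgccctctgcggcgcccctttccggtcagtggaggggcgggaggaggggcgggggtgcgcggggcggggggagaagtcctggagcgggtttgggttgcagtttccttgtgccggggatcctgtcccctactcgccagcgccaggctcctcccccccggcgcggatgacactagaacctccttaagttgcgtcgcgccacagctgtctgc
XBP1: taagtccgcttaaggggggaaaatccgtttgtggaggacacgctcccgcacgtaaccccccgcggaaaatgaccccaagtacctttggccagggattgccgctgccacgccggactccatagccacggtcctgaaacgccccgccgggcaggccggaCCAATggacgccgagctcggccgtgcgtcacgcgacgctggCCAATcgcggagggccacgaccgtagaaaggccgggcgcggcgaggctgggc
TFAP2B: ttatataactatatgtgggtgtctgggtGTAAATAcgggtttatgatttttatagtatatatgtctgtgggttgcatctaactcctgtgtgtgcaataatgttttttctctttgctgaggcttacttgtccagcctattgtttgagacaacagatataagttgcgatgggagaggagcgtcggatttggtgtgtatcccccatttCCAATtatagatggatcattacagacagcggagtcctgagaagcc
Both strands were searched for a forkhead motif (the letters TGTTTAC, with A allowed for the G and G allowed for the A), a GATA motif (the letters AGATAA, with T allowed as the first base and G as the last), an AP-2 motif (GCCNNNGGC), the CCAAT box, an interferon-stimulated response element (GAAA repeated after any 2 bases), an estrogen response element (GGTCA followed, after any 3 bases, by TGACC) and an ETS motif (CCGGAAG). The forkhead letters were found in the windows of FOXA1 itself (bases -235 to -229 from the start), SPDEF (-49 to -43) and TFAP2B (-222 to -216), and in 10.6% of all 35116 windows of this length. The AP-2 letters occurred in the GATA3 window (-218 to -210) and in 19.8% of all windows. A CCAAT box was present in the SPDEF, XBP1 and TFAP2B windows, with a pair of them in XBP1, and in 32.0% of all windows. No match to the GATA, interferon-stimulated, estrogen response or ETS letters was found in these 5 windows, against 22.3%, 3.02%, 0.0399% and 8.52% of all windows. Among the members not called lower, the windows of ESR1 and PGR (sequences not shown) also held a CCAAT box, and that of PGR held GATA letters. Neither held the forkhead or AP-2 letters. The 5 windows also differed in composition, from 40.8% G and C in TFAP2B and 50.8% in SPDEF to 73.6% in GATA3. A match is a description of the sequence and does not show binding. TFAP2A and TRPS1 are named only.

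Of the 9 factors, 7 fell after DUSP6 siRNA (FOXA1, SPDEF, GATA3, XBP1, TFAP2A, TFAP2B and TRPS1), PGR did not pass the test, and ESR1 was too low to be tested. The 8 tested factors passed the filter in both groups. Among all 12862 tested genes, 24.7% were called lower and 19.7% higher at a limma adjusted p under 0.05, or 44.5% in either direction, whereas 7 of the 8 tested factors were called lower and 0 higher. The 7 factors were left at 47.8% to 68.5% of their scrambled means, with log2 fold changes between -1.05 and -0.54. The median of the 8 tested factors was -0.70, beside -0.01 for all tested genes. In each of the 7 genes all DUSP6 siRNA libraries were below all scrambled libraries, which was also the case for 31.1% of tested genes, with 26.7% separate in the other direction. The exact permutation test of 3 against 3 libraries gave p = 0.1 (two-sided) for each of them, the smallest p this design allows. In bulk RNA, fewer cells that express a gene and less of its mRNA per cell cannot be told apart.

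**Figure D1:**
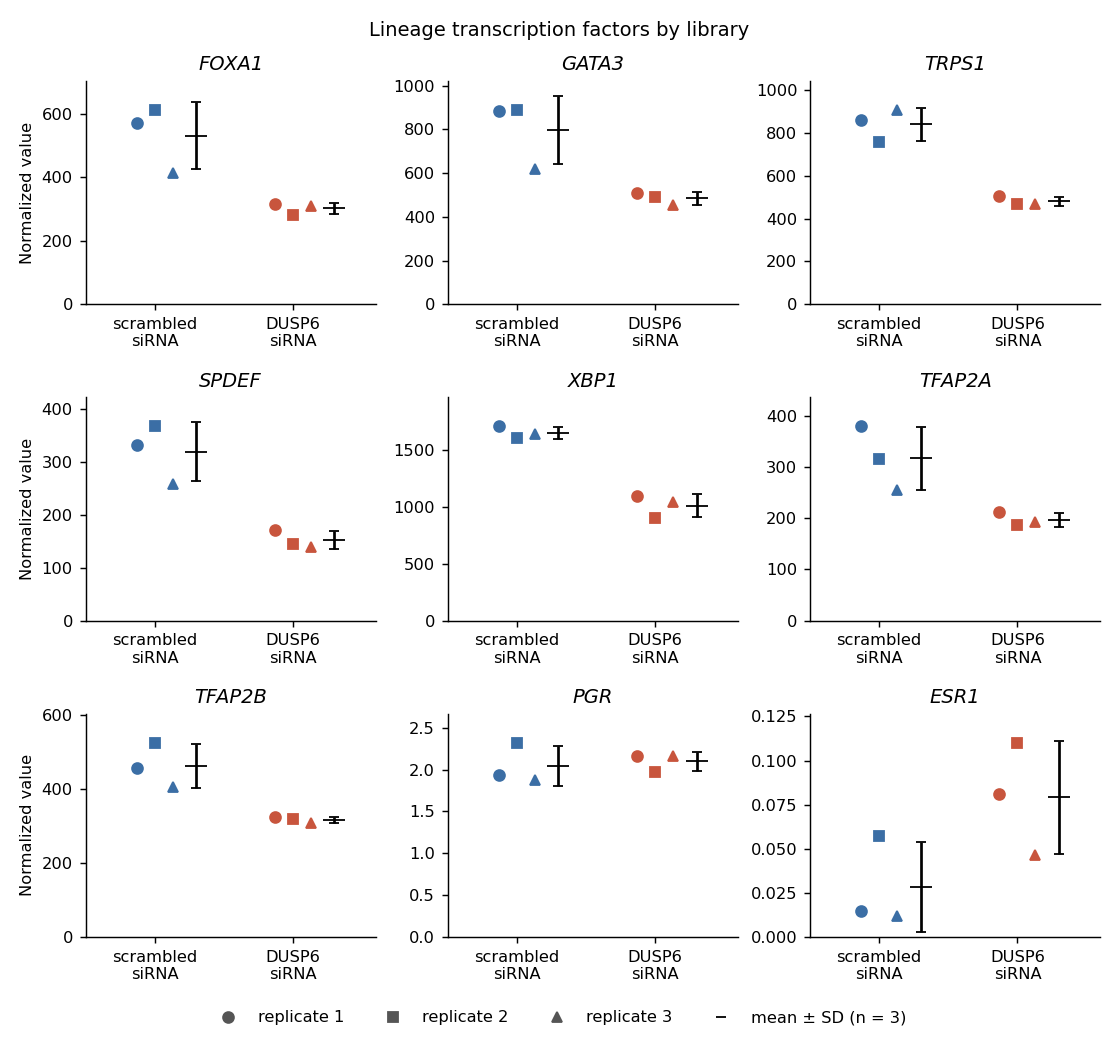
Normalized value of each lineage factor (linear axis from 0, own scale per panel, close to CPM) in the 3 scrambled and the 3 DUSP6 siRNA libraries, with 1 point per library, the point shape giving the replicate, and bars for the mean ± SD (n = 3). The groups are separate for FOXA1, SPDEF, GATA3, XBP1, TFAP2A, TFAP2B and TRPS1 and overlap for PGR (1.88 to 2.32) and ESR1 (0.0121 to 0.110).

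FOXA1 and GATA3 are the chromatin-opening factors of the luminal lineage. FOXA1 (Entrez gene 3169, chr14:37589552-37595249, minus strand) had values of 569, 611 and 412 in scrambled replicates 1 to 3 and of 316, 283 and 308 after DUSP6 siRNA. The groups did not overlap, and scrambled replicate 3 was the scrambled library nearest to the depleted cells. The mean fell from 531 ± 105 (SD, n = 3) to 302 ± 17.3, to 56.9% of control (log2 fold change of -0.79, SE 0.14, 95% interval -1.12 to -0.47, limma adjusted p = 0.00237). GATA3 (2625, chr10:8045333-8075198, plus strand), which is required for the luminal fate, gave 885, 887 and 619 in scrambled libraries and 509.5, 491 and 452 after DUSP6 siRNA. Scrambled replicate 3 was again the lowest control and stayed above every depleted library. The GATA3 mean fell from 797 ± 154 to 484 ± 29.5 (log2 fold change of -0.70, SE 0.15, limma adjusted p = 0.00461). The GATA3 value without scrambled replicate 3 was -0.87, and that of FOXA1 was -0.96, both still called.

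SPDEF, an ETS factor of secretory epithelia, had the largest fall of the 9 factors. SPDEF (25803, chr6:34537802-34556329, minus strand) read 332, 368 and 258 in scrambled libraries and 172, 145 and 139.9 in DUSP6 siRNA libraries. The highest depleted library reached 0.667 of the lowest control. Its mean dropped from 319 ± 55.7 to 153 ± 17.4, less than 50% of control (log2 fold change of -1.05, SE 0.14, 95% interval -1.37 to -0.73, limma adjusted p = 4.86e-04). Only 3.74% of tested genes had a lower log2 fold change. XBP1 (7494, chr22:28794560-28800569, minus strand), the factor that expands the secretory pathway and is activated by splicing in the unfolded protein response, was the most abundant member. Its values were tight in scrambled cells, at 1709, 1605 and 1644, and were 1099.8, 900.2 and 1041 after DUSP6 siRNA. The mean fell from 1653 ± 52.5 to 1014 ± 103 (log2 fold change of -0.71, SE 0.11, limma adjusted p = 9.82e-04). The table gives 1 value per gene, so spliced and unspliced XBP1 were not separated.

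The AP-2 factors bind the same GC-rich motif, and TFAP2B is found in differentiated luminal cells. TFAP2A (7020, chr6:10396677-10419659, minus strand) had values of 379, 316 and 255 in scrambled libraries and 212, 187 and 192 in DUSP6 siRNA libraries. Each control exceeded each depleted library, and the 2 nearest libraries differed by a ratio of 0.832. The TFAP2A mean fell from 317 ± 61.9 to 197 ± 13.4 (log2 fold change of -0.67, SE 0.14, limma adjusted p = 0.00477). This value is uncertain, because 5.3% of the exon sequence of TFAP2A overlaps the opposite-strand gene TFAP2A-AS1 and the counting, run at its default settings, did not use strand. TFAP2A-AS1 itself was listed between 2.04 and 2.77 in all 6 libraries. TFAP2B (7021, chr6:50818355-50847619, plus strand) read 457, 526 and 407 in scrambled and 324, 321 and 309 in DUSP6 siRNA libraries. The depleted libraries lay close together and below all controls. TFAP2B showed the smallest of the 7 falls, from 463 ± 59.4 to 318 ± 8.03 (log2 fold change of -0.54, SE 0.11, limma adjusted p = 0.00381). After quantile normalization its log2 fold change was -0.28 and was no longer called (limma adjusted p = 0.0664).

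TRPS1 (7227, chr8:115408496-115668975, minus strand) is a GATA-type repressor that is widely used as a breast lineage marker. Its values were 859, 755 and 905 in scrambled libraries and 503, 466 and 469.8 after DUSP6 siRNA. Unlike the other falling factors except XBP1, TRPS1 was not lowest among the controls in scrambled replicate 3, where it had its highest value. The mean fell from 839.7 ± 76.9 to 479.5 ± 20.5 (log2 fold change of -0.80, SE 0.10, 95% interval -1.03 to -0.58, limma adjusted p = 3.40e-04).

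**Figure D2:**
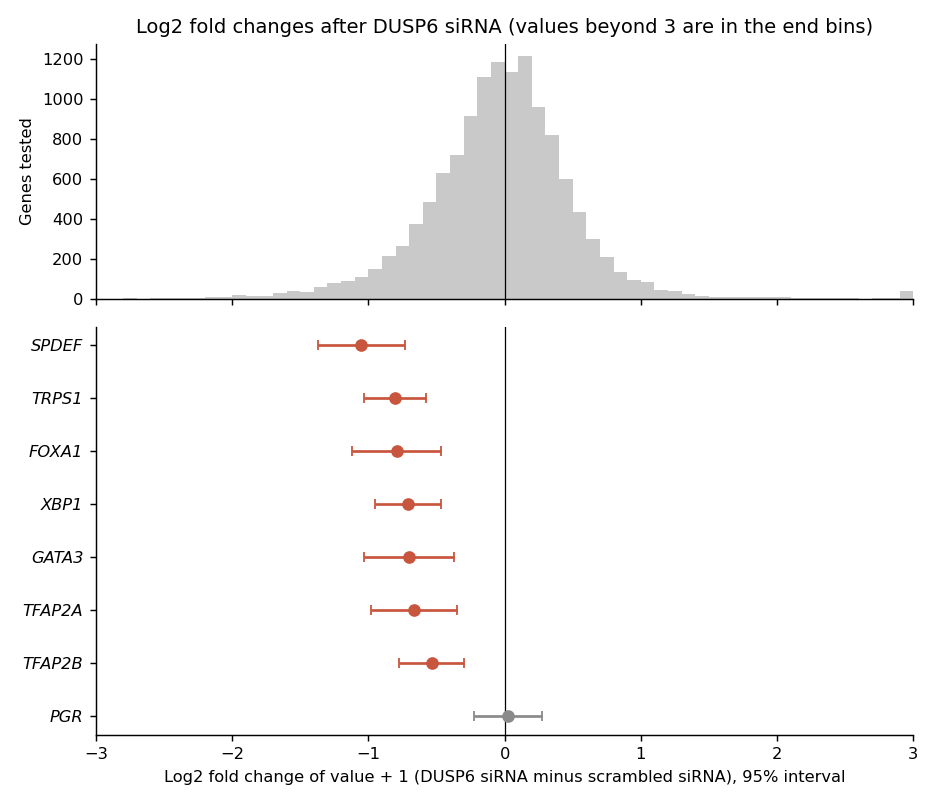
Top, number of tested genes by log2 fold change of value + 1 (DUSP6 siRNA minus scrambled siRNA), with values beyond 3 in the end bins. Bottom, log2 fold change of each tested factor with its 95% interval from limma on the same axis, with the 7 called factors between -1.05 and -0.54 and PGR at 0.03.

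Of the sex steroid receptors of the luminal lineage, PGR did not pass the test and ESR1 could not be tested. PGR (5241, chr11:101029624-101129813, minus strand), the progesterone receptor, had values of 1.93, 2.32 and 1.88 in scrambled libraries and 2.16, 1.97 and 2.16 after DUSP6 siRNA. The groups overlapped (log2 fold change of 0.03, SE 0.11, 95% interval -0.22 to 0.28, limma adjusted p = 0.856). Counting error is small here, with 407 reads in scrambled and 408 in DUSP6 siRNA libraries, but 5.0% of the PGR exon sequence is shared with the opposite-strand gene PGR-AS1. ESR1 (2099, chr6:151656672-152129619, plus strand), the estrogen receptor, was represented by 1, 3 and 1 reads in scrambled libraries and 4, 9 and 3 reads in DUSP6 siRNA libraries. These are values of 0.0121 to 0.0575 and 0.0464 to 0.110, and 3 reads, the floor used here, correspond to 0.0362 to 0.0607. The pooled ratio of ESR1 was 3.31, with a counting interval of 1.16 to 11.5 that does not cover the spread between libraries. The ESR1 values of the groups overlapped (exact permutation p = 0.2, two-sided).

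Per kilobase of canonical transcript, the factors covered a wide range of levels in scrambled cells. XBP1 was highest at 923 units per kb, above 99.8% of tested genes. GATA3 followed at 259, SPDEF at 167, FOXA1 at 151, TFAP2A at 101, TRPS1 at 84.3 and TFAP2B at 82.3 units per kb, whereas PGR was at 0.157 and ESR1 at 0.00445. The ranges of the libraries overlapped between SPDEF and FOXA1, FOXA1 and TFAP2A, TFAP2A and TRPS1, and TRPS1 and TFAP2B. Overlap of ranges does not compare factors within a library, and the order of these neighbors was not tested. The levels also rest on the length of 1 transcript, whereas reads were counted over all exons of a gene. For TFAP2A all exons together span 8220 bases, against 3143 in the canonical transcript. Its level and its place in the order therefore depend on the length used. After DUSP6 siRNA the levels per kb were 566 for XBP1, 157 for GATA3, 86.1 for FOXA1, 79.9 for SPDEF, 62.7 for TFAP2A, 56.4 for TFAP2B and 48.1 for TRPS1. SPDEF thus stood below FOXA1 and TRPS1 below TFAP2B, and the ranges of SPDEF and FOXA1 still overlapped. Even after the fall XBP1, GATA3, FOXA1, SPDEF, TFAP2A and TFAP2B stayed above 99.7%, 97.7%, 94.8%, 94.1%, 92.0% and 91.0% of tested genes per kb, and TRPS1 above 88.9%.

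Ratios between factors within a library do not depend on how libraries are scaled, and 4 pairs were compared. The log2 ratio of FOXA1 to SPDEF was 0.78, 0.73 and 0.67 in scrambled libraries and 0.87, 0.96 and 1.14 in DUSP6 siRNA libraries. All depleted libraries were higher, by 0.26 on average. This difference did not pass an exact permutation test, whose two-sided p of 0.1 is the smallest possible and was 0.4 after adjustment over the 4 pairs. The groups overlapped for the other pairs. TFAP2A to TFAP2B differed by -0.13 (exact p = 0.6), FOXA1 to GATA3 by -0.09 (exact p = 0.3) and GATA3 to TRPS1 by 0.10 (exact p = 0.9). Leaving out single libraries moved the TFAP2A to TFAP2B difference from -0.22 to 0.01 (without scrambled replicate 1), the FOXA1 to GATA3 difference from -0.16 to -0.03 and the FOXA1 to SPDEF difference from 0.19 to 0.32. The GATA3 to TRPS1 ratio varied among controls, at 0.04, 0.23 and -0.55, and its difference ranged from -0.13 (without scrambled replicate 3) to 0.27.

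**Figure D3:**
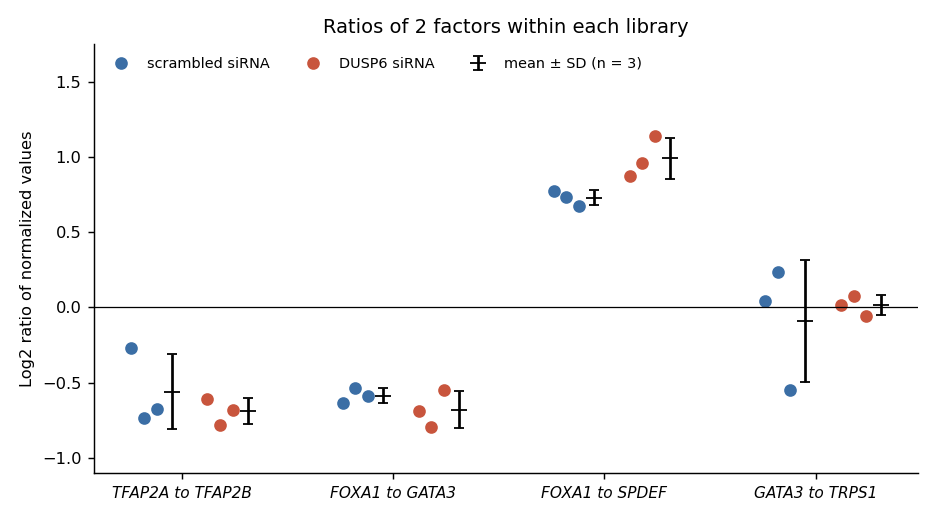
Log2 ratio of 2 factors in each library for 4 pairs, with 1 point per library and bars for the mean ± SD (n = 3). The groups are separate for FOXA1 to SPDEF (means 0.73 and 0.99) and overlap for the other pairs.

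Over the 6 libraries the 7 falling factors followed each other closely, with Pearson r of log2 values from 0.82 (GATA3 and TRPS1) to 0.98. These correlations include the difference between the groups that all 7 share and are given as a description. The tested genes most like FOXA1 were CREB3L1, DOCK5 and CD63 (r = 0.998 to 0.999), those most like SPDEF were KRT23, KIF14 and IGFBP4, and those most like GATA3 were CKAP2, ZMYND8 and BCRP2. XBP1 was most like ZNF239, S100A14 and CAPN13, TFAP2A most like ATAD5, POLQ and RARA (11.7% of its exons shared with RARA-AS1), TFAP2B most like JUP, HID1 and CLOCK, and TRPS1 most like ADAMTS4, TUBB and AIF1L. For PGR, whose values hardly varied, the nearest genes were CDH1, KRTAP5-1 and PCED1B, at r = 0.975 to 0.978, with 10.2% of the exons of PCED1B shared with PCED1B-AS1.

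Relatives of the factors moved in both directions. Of 12 tested paralogues and other steroid receptors, 6 fell and 2 rose, with a median log2 fold change of -0.30. The counts of this list and of those that follow stand beside 24.7% of all tested genes called lower and 19.7% higher. No list was tested against these shares. The epithelial ETS factors ELF3 and EHF, relatives of SPDEF, fell from 79.7 to 19.1 (log2 fold change of -2.03, limma adjusted p = 7.02e-05) and from 480.1 to 260.1 (-0.90, limma adjusted p = 0.00135). CREB3L4, a secretory factor of the family of CREB3L1, fell by 0.81 on the log2 scale, but 9.6% of its exon sequence is shared with SLC39A1 on the opposite strand. TFAP2C, the third AP-2 factor of the breast, fell from 54.4 to 35.5 (log2 fold change of -0.60, limma adjusted p = 0.00213). GATA2 did not pass the test (43.2 and 39.5). The glucocorticoid receptor NR3C1 rose from 149.7 to 238 (log2 fold change of 0.67, limma adjusted p = 0.00117). TFAP2C, GATA2 and NR3C1 were chosen after their values were seen.

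The partners through which the factors act fell more often than not. Among 21 tested luminal cofactors, 15 fell and 2 rose, with a median log2 fold change of -0.51. TLE3, a corepressor that works with FOXA1, fell from 86.1 to 26.4 (limma log2 fold change -1.67, adjusted p = 2.92e-05). The nuclear receptor coactivator NCOA2 fell from 177 to 76.9 (-1.19) and the chromatin remodeling subunit ARID1A from 329 to 147 (-1.15). Among 4 tested basal, myoepithelial and mesenchymal factors, TP63 fell from 10.1 to 1.76 (log2 fold change of -1.95) and ZEB1 rose from 0.560 to 1.70 (0.80 on the log2(value + 1) scale), with 4.6% of its exon sequence shared with ZEB1-AS1. ZEB1 passed the filter only through the DUSP6 siRNA libraries, where it is high, so its call is no support for a change of this list.

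Most tested apocrine markers fell, whereas known target genes of SPDEF and XBP1 did not move as a block. Of 12 tested apocrine markers 10 fell and 0 rose, with a median log2 fold change of -1.07. Among all tested genes, 24.7% were called lower and 19.7% higher. CLCA2 fell from 1393 to 205 (log2 fold change of -2.78, limma adjusted p = 5.33e-06), ABCA12 from 325 to 76.8 (-2.09) and CYP4Z1 from 7.21 to 1.10 (-1.94). Of 5 tested SPDEF targets, 2 fell and 2 rose. CREB3L1, a secretory factor, fell from 32.9 to 2.98 (log2 fold change of -2.89) and AGR2, a disulfide isomerase of mucus-secreting cells, from 358 to 93.0 (-1.95), whereas TFF3 rose from 3.64 to 9.74 (1.20). Of 22 tested XBP1 targets of the secretory and folding machinery, 2 fell and 6 rose, among them DNAJB9 (0.76), HERPUD1 (0.62) and EDEM1 (0.57), with a median of 0.18. After quantile normalization these counts were 0 and 14.

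Of 13 tested estrogen receptor targets, 5 fell and 2 rose, beside 24.7% called lower and 19.7% higher among all tested genes. ANXA9 fell from 27.3 to 6.39 (log2 fold change of -1.93) and IGFBP4 from 13.4 to 4.91 (-1.28), whereas TFF1 rose from 7.10 to 30.3 (2.09, limma adjusted p = 0.00121). Among 6 growth factor receptors, some of them AP-2 targets, ERBB2 fell from 984 to 495 (log2 fold change of -0.99, with 5.5% of its exons shared with MIEN1 and so uncertain), ERBB3 fell from 307 to 192 (-0.66) and ERBB4 rose from 15.6 to 24.6 (0.62).

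**Figure D4:**
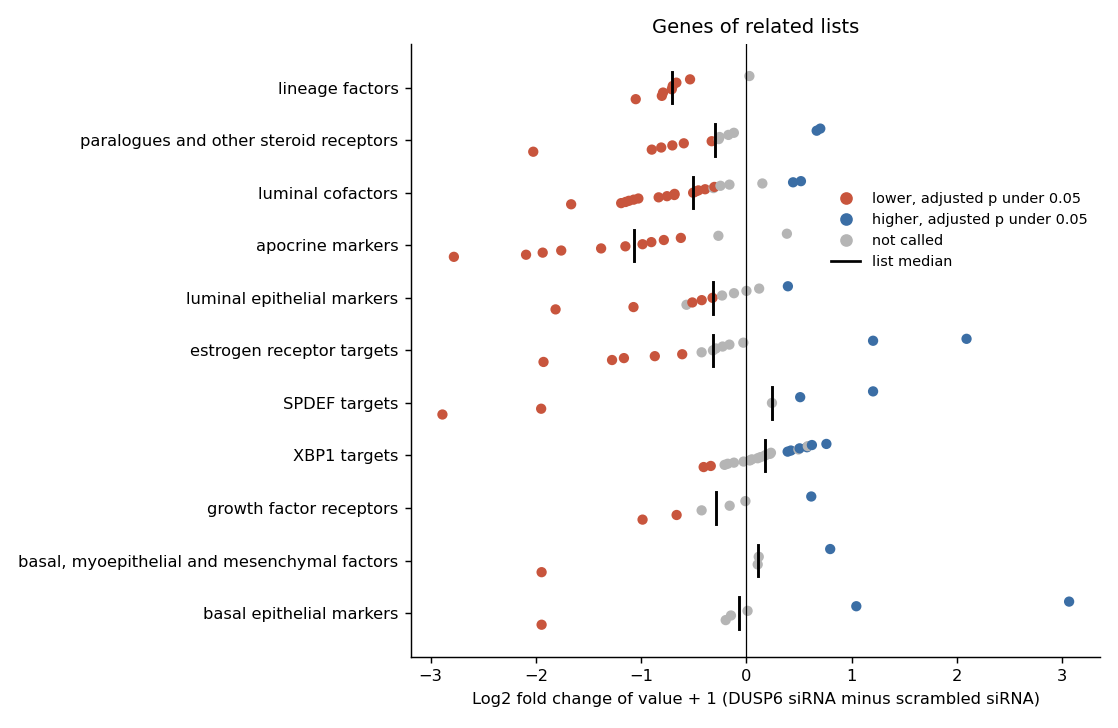
Log2 fold change of value + 1 (DUSP6 siRNA minus scrambled siRNA) of each tested gene in 11 lists, with 1 point per gene colored by its limma call and a bar at the list median. The lineage factors (median -0.70), luminal cofactors (-0.51) and apocrine markers (-1.07) lie mostly below 0, and the XBP1 targets (0.18) lie on both sides.

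Other features of the libraries moved with the same contrast as the falling factors. All 15 tested genes of the type I interferon response rose, with a median log2 fold change of 6.05 and a summed value of 189.6 to 263 in scrambled and 5003 to 6054 in DUSP6 siRNA libraries, led by IFI6, IFIT1 and OASL. MX1, OAS2 and IFI44L, named after their values were seen, passed the filter only through the DUSP6 siRNA libraries. Of 11 tested luminal epithelial markers 5 fell and 1 rose, but these counts depended on the setting. They were 3 and 2 after quantile normalization or with total reads, 3 and 0 without a filter or without a trend, and 3 to 5 and 0 to 1 without 1 library, with the fewest without scrambled replicate 2 or any 1 of the DUSP6 siRNA libraries. Their summed value went from 3238 to 4032 in scrambled libraries to 2317 to 2505. KRT19, KRT7 and KRT18 had log2 fold changes of -1.81, -1.07 and -0.51, the last with 17.1% of its exons shared with KRT8. Of 6 tested basal markers, TP63 fell while KRT17 (0.875 to 14.7, log2 fold change of 3.06) and KRT16 (1.04) rose. KRT17 passed the filter only through the DUSP6 siRNA libraries, where it is high. Of the basal markers under the filter, KRT14, KRT6A and KRT6B were higher and KRT5 was lower, each without overlap. With no filter 1 basal marker was called lower and 4 higher, and with a mean value of at least 10 the counts were 0 and 0. The summed value of the basal list was 38.1 to 45.9 in scrambled and 42.8 to 52.1 in DUSP6 siRNA libraries. COL1A1 was the only tested gene of 7 fibroblast markers in the table and rose by 0.90 on the log2 scale (summed value 81.0 to 105.6 and 164 to 194), while LUM, COL1A2 and COL3A1 were at or near 0. FAP, under the filter, went from 0.0893 to 1.82 without overlap, and with no filter 2 fibroblast markers were called higher. The blood and endothelial list, of which CD68 alone was tested and not called, summed to 4.02 to 5.93 after DUSP6 siRNA. The part of these features in the fall of the lineage factors was not tested.

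The direction of the 7 falls was the same under each other setting that was run. With total reads in place of the deposited scaling, a choice made after seeing the data, the median of all tested genes moved to 0.20, and the 7 factors were still called lower, from -0.82 (SPDEF) to -0.31 (TFAP2B). XBP1 moved most in relative terms besides TFAP2B, from -0.71 to -0.40 after quantile normalization, and TFAP2A went to -0.44 with total reads. All 7 were called in each of the 6 fits that left out 1 library.

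**Figure D5:**
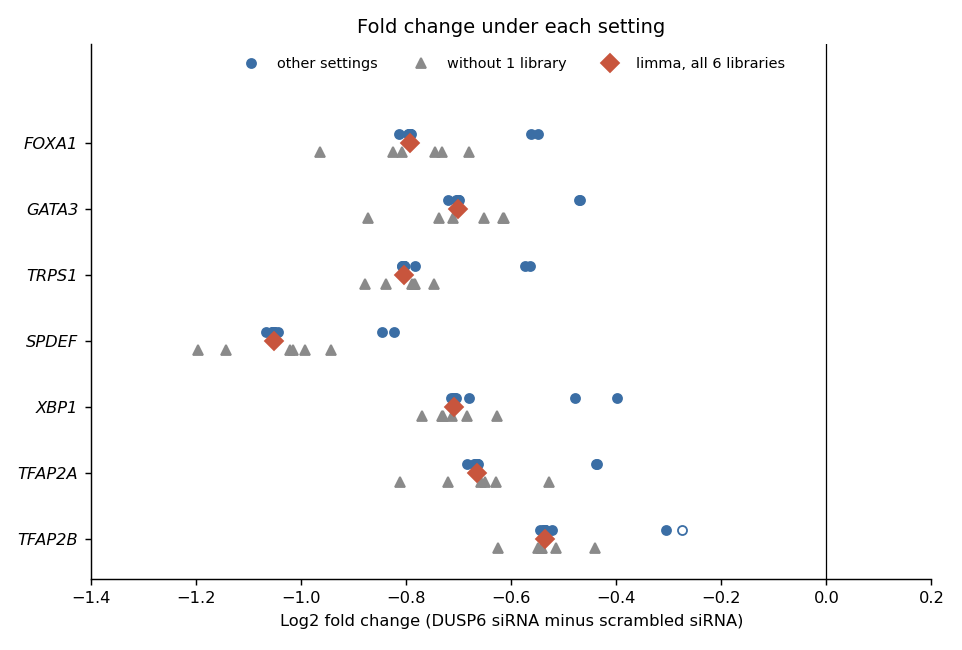
Log2 fold change (DUSP6 siRNA minus scrambled siRNA) of the 7 falling factors with limma on all 6 libraries (diamonds), under other settings (circles) and without 1 library (triangles), where an open symbol is a fit without a call. All points lie below 0, and the 1 open symbol is TFAP2B at -0.28 after quantile normalization.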

How the data were processed

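The authors aligned the reads to hg38 and counted them per RefSeq gene with Rsubread at default settings, which ignore strand. Per the labels, edgeR was used. The table they deposited gives a normalized, linear signal for each gene in each library. All values were whole reads (within 0.001) times 1 step per library, and the steps held edgeR's TMM scaling factors. Depth and composition had thus been adjusted for by the authors. These factors were 0.881 to 0.968 in scrambled and 1.08 to 1.09 in DUSP6 siRNA libraries. They differ between the groups and lower the DUSP6 siRNA values relative to the scrambled ones. The size of each fall therefore depends on this scaling. One read is worth 0.0121 to 0.0202, which covers counting error only.

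Genes averaging 1 or more over the 6 libraries (12862) were tested as log2(value + 1) with limma 3.58.1 (eBayes with trend, R 4.3.3), with Benjamini-Hochberg adjustment over all of them and calls at 0.05. Fold changes are on this scale and understate low genes. Single values were compared with exact permutation tests. The fits were tested on simulated data. Named are the members, DUSP6, up to 3 called genes per list with the largest change and the 3 genes most correlated with each tested member. Any other gene named, KRT8, EPCAM, CLDN3, MUC1, FASN, AZGP1, PIP, CD68, LUM, COL1A2, COL3A1 and FAP included, was chosen after its values were seen. The members and lists were chosen with earlier results of these data known. Symbols TWIST1, TWIST2, KCNK5, DCN and CD3E had no matching row. RefSeq held 22359 of the gene IDs and gave the gene positions. Canonical transcripts and exon overlaps came from the GENCODE annotation, whereas the reads were counted on RefSeq genes. Positions and 250-base promoter windows are on GRCh38.p14. Where a neighbor covers over 5% of the exons of DUSP6, a member, a top list gene or a correlated gene, the text says so. The other named genes were not checked for such overlap. Alternatives were other pseudocounts, filters, scalings, eBayes without trend, a replicate block, edgeR 4.0.16, DESeq2 1.42.0 and leaving out each library. Some genes are not reported here and were left out of the lists. The other experiments of the study were not analysed here.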

Additional observations from a re-analysis of the deposited data

How the results depend on the processing

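FOXA1, SPDEF, GATA3, XBP1, TFAP2A and TRPS1 kept their direction and call under all 16 alternatives, and TFAP2B under 15, with -0.28 (limma adjusted p = 0.0664) after quantile normalization, where 6 factors were called lower. The cause was not tested. PGR was never called and had no value with a mean of at least 10. Without 1 library, the 7 falls ranged from -1.20 (SPDEF) to -0.44 (TFAP2B). For all tested genes, a mean value of at least 10 gave 1639 genes called higher, with fewer genes tested, and scaling by total reads, added after seeing the data, gave 4777 higher and 1800 lower. Leaving out 1 library gave 1574 to 3183 genes higher and 2306 to 3581 lower, with the fewest higher without DUSP6 siRNA replicate 2.

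The labels do not say whether same-numbered libraries form pairs. Their deviations from the group means correlated at 0.01, 0.09 and -0.08. Not every scrambled library correlated best with the DUSP6 siRNA library of its own number. These weak correlations do not show a pairing and cannot exclude one. With the replicate block, 3096 genes were lower and 2495 higher, the same 7 factors were called, and the log2 fold change of FOXA1 was -0.79. The limma adjusted p of FOXA1 was 7.50e-04 with the block and 0.00237 without it. With 3 libraries per group, the exact tests could not go below p = 0.1.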
